A study of Drosophila melanogaster with 3 samples.

Results

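The zinc finger gene cbt (cabut, FBgn0043364) was examined in chromatin immunoprecipitation of the Atf3 protein from whole Drosophila melanogaster embryos. It is 1 of 17896 annotated genes on the 6 large chromosome arms, and it was chosen by a measured value, since a peak near it had the second highest signal of the experiment. Its levels of signal are therefore given as a description, with no test. All calls were taken whose summit, the position of highest signal, lay in the gene or within 10 kb on either side. This gave 7 of the 2896 calls of the IDR list, named for the irreproducible discovery rate, which scores whether replicates rank a peak alike. It also gave 15 of the 27754 calls made on the pooled replicates, and 17, 16 and 15 of the 30000 calls of replicates 1, 2 and 3.

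The embryos were of strain A3-3-GFP, a stable transgenic line in which green fluorescent protein is fused to the C-terminus of Atf3, with both sexes pooled and ages of 0 to 24 h. Chromatin was sonicated to 200 to 800 bp. The labels conflict on the antibody: their description names anti-GFP, while their antibody field names Atf3, so it is not settled that the tagged protein alone was precipitated. There were 3 biological replicates of this 1 line in 1 group, and the labels name no untagged line or treatment. The promoter that drives the transgene is not given in the sources used here, and whole embryos give a mean over all cell types present. Each list was made with a control file. The files carry no read totals, so the depth behind each call is unknown. The signal of a call is the authors' own value, it is compared here only within a list, and rank 1 is the highest signal of a list.

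Atf3 is a basic leucine zipper transcription factor of the ATF/CREB family. The gene cbt encodes a C2H2 zinc finger transcription factor related to the mammalian TIEG proteins KLF10 and KLF11. In flies it is known for its part in dorsal closure, the sealing of the embryonic epidermis under JNK signalling, and as a repressor of metabolic genes that is itself a sugar-responsive target of the factors Mondo and Mlx (the gene bigmax).

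On assembly dm6, cbt spans chr2L:476446-479688 on the minus strand, 3243 bp, and its 3 annotated transcripts share 1 start site at position 479688. The whole gene lies in an intron of u-shaped (ush, FBgn0003963), which runs the other way over chr2L:476220-540560 and encodes a zinc finger cofactor of GATA factors. Beyond the 3' end of cbt lie MED15 (FBgn0027592, chr2L:473013-476170, plus strand), a subunit of the Mediator complex, and CG4297 (FBgn0031258, chr2L:458876-472200, minus strand). Below, distances with a plus sign are upstream of the cbt start site and those with a minus sign are downstream of it.

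The sequence under the strongest call is shown first because it is the one that placed cbt second in the experiment. It reaches 100 bp to either side of the pooled summit, from the release 6 genome (dm6), plus strand, chr2L:480990-481190. Capitals mark a match to the TATA box letters TATAAA read on the minus strand, which was the only match among the 14 motifs searched.
cbt strongest call: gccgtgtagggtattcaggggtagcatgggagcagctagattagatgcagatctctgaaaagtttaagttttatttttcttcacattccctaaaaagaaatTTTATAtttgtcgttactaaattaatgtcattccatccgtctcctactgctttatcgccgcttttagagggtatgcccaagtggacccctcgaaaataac

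The match lay at chr2L:481091-481096, with its centre 3.5 bp from the summit. The match is to letters alone, the call lies 1402 bp from the cbt start site, and 29.6% of all 2896 IDR windows hold the same letters. The cAMP response element palindrome TGACGTCA, its core TGACGT, which is part of the palindrome, and the AP-1 letters TGACTCA or TGAGTCA, to which bZIP factors are known to bind, were not in this window.

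A further 3 windows are shown because they share a stretch of 14 letters, TTTCTTTCTGTGCA, that was noticed when the sequences at cbt were read. They belong to the call nearest the cbt promoter and to 2 calls on the far side of MED15. All reach 100 bp to either side of the summit on the plus strand of dm6, and capitals mark each copy of the stretch with at most 2 mismatches on either strand.
cbt promoter call, chr2L:479978-480178: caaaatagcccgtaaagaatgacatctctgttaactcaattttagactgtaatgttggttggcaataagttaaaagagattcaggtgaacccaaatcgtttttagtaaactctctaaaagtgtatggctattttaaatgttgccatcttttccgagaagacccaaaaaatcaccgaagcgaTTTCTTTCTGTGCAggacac
call between CG4297 and MED15, chr2L:472387-472587: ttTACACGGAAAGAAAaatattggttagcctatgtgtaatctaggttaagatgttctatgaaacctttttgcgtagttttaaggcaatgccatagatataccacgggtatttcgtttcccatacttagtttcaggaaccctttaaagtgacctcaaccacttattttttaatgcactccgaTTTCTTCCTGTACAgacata
call in the CG4297 intron, chr2L:468814-469014: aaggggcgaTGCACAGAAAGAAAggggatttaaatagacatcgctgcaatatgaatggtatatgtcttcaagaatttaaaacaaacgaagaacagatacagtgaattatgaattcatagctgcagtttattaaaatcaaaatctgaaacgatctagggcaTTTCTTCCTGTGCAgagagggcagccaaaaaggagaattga

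The promoter window held the exact stretch at chr2L:480159-480172, centred 87.5 bp from its summit. The CG4297 intron window held it on the minus strand at chr2L:468823-468836, centred at -84.5 bp on the chromosome from its summit, and also a copy with 1 mismatch on the plus strand at chr2L:468974-468987. The window between CG4297 and MED15 held 2 copies with 2 mismatches each, at chr2L:472389-472402 on the minus strand and chr2L:472568-472581 on the plus strand. All 5 copies thus lay toward the edges of the windows, 66.5 bp or more from a summit, and not at the point of highest signal. The exact letters occurred in 4 of the 2896 IDR windows, 2 of them at cbt, in 13 of the 27754 pooled windows and in 4 of 19252 windows at annotated start sites. With up to 2 mismatches, 3 of the 7 windows at cbt held a copy, beside 5.80% of IDR, 2.31% of pooled and 0.488% of start-site windows. On the 6 arms there were 82 exact copies, or 0.612 per Mb, 2 of them in the cbt region. In the other 4 windows at cbt the nearest stretch had between 4 and 6 mismatches. The stretch was chosen after the sequences were seen, so these shares describe it and test nothing.

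Around the cbt gene the IDR calls formed an upstream group of 4 and a downstream group of 3, with none in the gene itself. All 4 upstream summits lay in the ush intron, at +390, +1402, +2257 and +6170 bp from the cbt start site. Of the 3 downstream summits, those at -8888 and -10774 bp lay in an intron of CG4297, and the one at -7201 bp lay between CG4297 and MED15. No IDR summit fell in the 7591 bp from -7201 to +390, which hold the whole of MED15 and of cbt. None of the 7 windows touched an annotated exon.

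**Figure D1:**
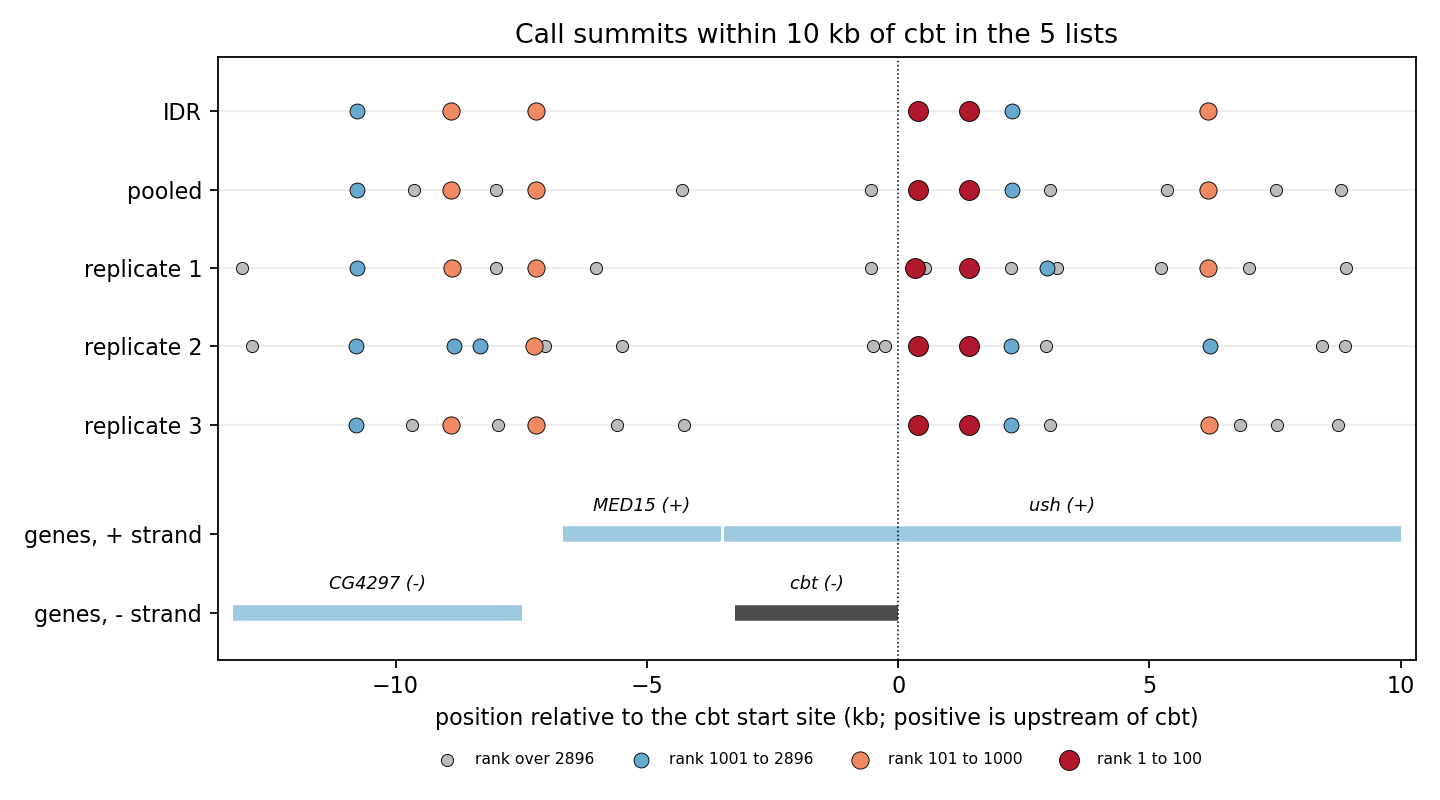
Summits of all calls in the cbt region, by list (rows) and by distance from the cbt start site in kb (horizontal axis), with annotated genes as bars cut at the edges of the region. Point size and colour give the signal rank in the list; the 2 calls of rank 100 or better lie just upstream of cbt in every list.

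The strongest call, chr2L:480882-481294 with its summit at 481090, lay 1402 bp upstream of cbt. It had a signal of 1610.0 and rank 2 in the pooled list, and ranks 1, 2 and 2 in replicates 1, 2 and 3 (1.67 ± 0.577, SD, n = 3). Its signals in the 3 replicate lists were 641, 485 and 483, so it was the top call of replicate 1 and second in the other replicates. In replicates 2 and 3 it had 86.6% and 96.1% of the highest signal of the list. By the rule that picked cbt, its pooled neighbours in signal were the calls at CG14100 (rank 1, signal 1627), px (rank 3, 1558) and Ugalt (rank 4, 1469.5).

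The replicate summits of the strongest call lay 0, 5 and 1 bp from the pooled summit, a mean distance of 2.00 ± 2.65 bp (SD, n = 3). Position was not used to choose cbt. The 3 replicate summits spanned 5 bp, and 2.22% of the 2747 IDR calls found in all replicates had a span that small. The median span of those calls was 53.0 bp (quartiles 29.0 to 93.0). Strong calls are placed more closely in general: among the 100 IDR calls of highest signal the median span was 20 bp, and 10 of them spanned 5 bp or less. At the 6 other IDR calls at cbt the replicate summits spanned between 7 and 64 bp.

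**Figure D2:**
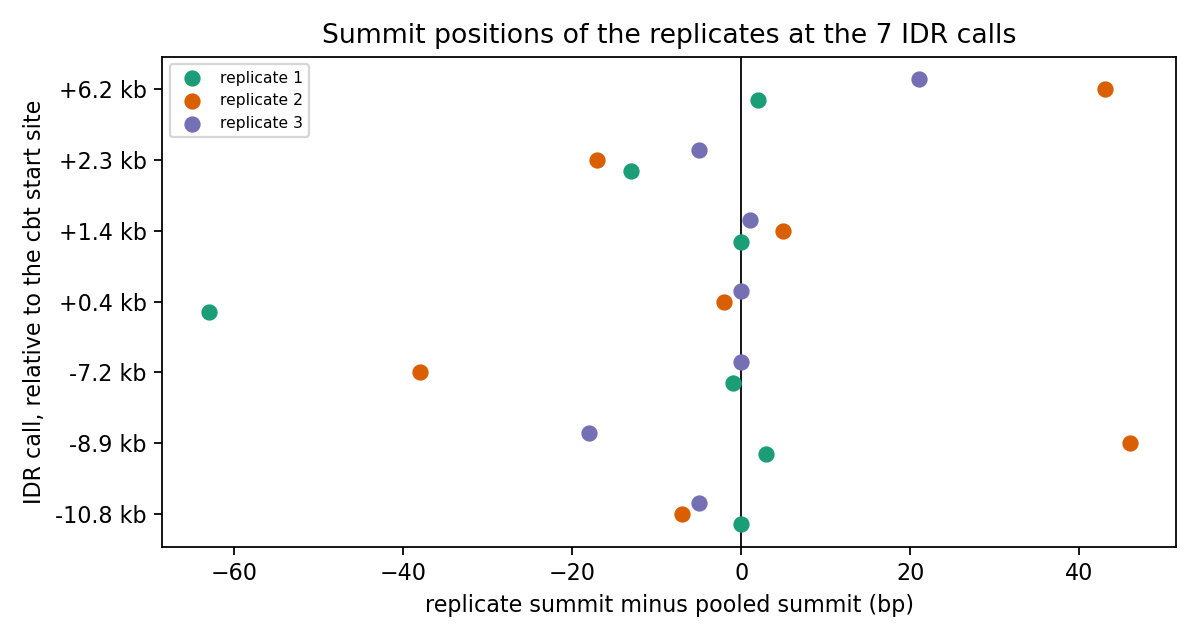
Replicate summit minus pooled summit in bp (horizontal axis) for each of the 7 IDR calls at cbt (vertical axis, by distance from the start site); each point is 1 replicate. The 3 points of the strongest call, at +1.4 kb, lie within 5 bp of each other, while those of the promoter call at +0.4 kb spread over 63 bp.

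The call nearest the cbt promoter, chr2L:479938-480214, had its summit at 480078, 390 bp upstream of the start site. It had a signal of 508 and rank 68 in the pooled list, and ranks 57, 65 and 96 in the replicates (72.7 ± 20.6, SD, n = 3). Its replicate summits spanned 63 bp, since replicate 1 placed its summit 63 bp nearer to the gene than the pooled summit while replicates 2 and 3 placed theirs within 2 bp of it. Such a call, an IDR summit no more than 500 bp from a start site, was found at 1974 of 13945 protein-coding genes (14.2%), cbt among them.

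Within every list the promoter call was the second strongest at cbt, and the strongest call exceeded it in signal by a like factor. The ratio was 3.17 in the pooled list and 2.91, 3.12 and 3.51 in the replicates (3.18 ± 0.303, SD, n = 3). The promoter call exceeded the third strongest by 1.69 in the pooled list and by 1.47, 2.05 and 1.52 in the replicates. The third strongest was the call at -7201 bp in the pooled list and in replicates 2 and 3, but the call at +6170 bp in replicate 1.

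The 2 other upstream calls differed more between replicates. The call at +6170 bp, chr2L:485778-485885, had pooled rank 402 and ranks 141, 2884 and 671 in the replicates (1232 ± 1455, SD, n = 3). Its signals were 150.0, 23.2 and 57.5. Its worst rank was 20.5 times its best, and 98.3% of the IDR calls found in all replicates had a ratio that small or smaller, so its rank differed more between replicates than at most IDR calls. This window also had the highest share of G and C of the 7, at 50.2%, above 94.7% of IDR windows, while the 6 others lay between 34.3% and 39.8% beside an IDR median of 36.8%. Whether base composition bears on the difference between replicates was not tested.

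The call at +2257 bp, chr2L:481745-482144, lay 855 bp from the strongest summit. It was the weakest IDR call of the region, with pooled rank 2566 and ranks 7358, 2299 and 2292 in the replicates (3983 ± 2923, SD, n = 3). Replicates 2 and 3 thus placed it among their best 2896 calls and replicate 1 did not. Its replicate summits nevertheless spanned 12 bp.

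Downstream, the call at -7201 bp, chr2L:472414-472551, was the most stable of the 3 in rank. It had pooled rank 248 and ranks 204, 362 and 266 in the replicates (277 ± 79.6, SD, n = 3). Its summit lay 287 bp from a start site of CG4297, which is the gene whose start site was nearest for all 3 downstream calls, and between the divergent starts of CG4297 and MED15.

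The call at -8888 bp, chr2L:470600-470999, had pooled rank 646 and ranks 618, 1300 and 617 (845 ± 394, SD, n = 3), with replicate 2 apart from the other replicates. The call at -10774 bp, chr2L:468714-469113, had pooled rank 1552 and ranks 1232, 1910 and 2855 (1999 ± 815, SD, n = 3). Its replicate summits spanned 7 bp, close to the span of the strongest call, at a far lower signal. The ratio of worst to best rank at the 3 downstream calls was between 1.77 and 2.32, below the median of 2.35 over IDR calls found in all replicates.

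**Figure D3:**
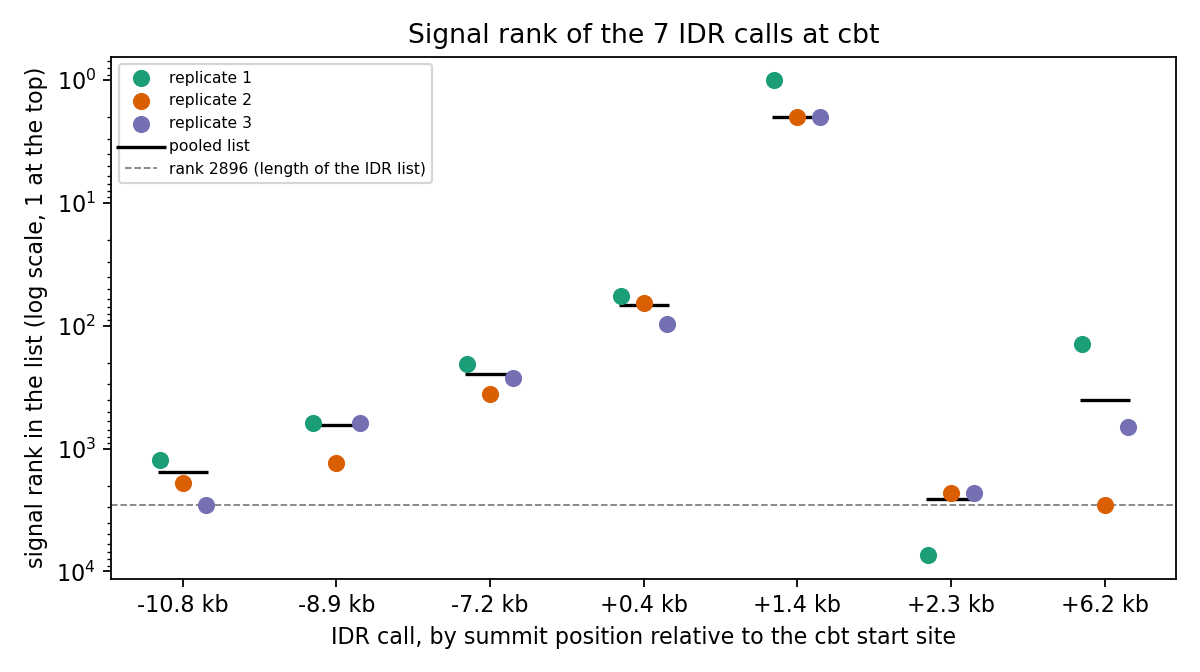
Signal rank (vertical axis, log scale, rank 1 at the top) of the 7 IDR calls at cbt by distance from the start site (horizontal axis), with 1 point per replicate, a bar for the pooled list and a dashed line at rank 2896, the length of the IDR list. Only the replicate 1 point at +2.3 kb, rank 7358, lies well below the line.

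The 8 pooled calls at cbt outside the IDR list were weaker, since that list holds the pooled calls of highest signal. They were also less often shared by the replicates than the 7 IDR calls at cbt, which were all found in 3 replicate lists. The IDR score measures agreement of replicates, but membership of the list followed pooled signal. A call in it therefore need not rank alike in each replicate, and 94.9% of all IDR calls were found in all 3 lists. Of the 8 calls, 2 were found in all 3 replicate lists, 2 in 2 lists and 4 in 1 list. The share over all pooled calls outside the IDR list is not given here, so these counts are not read as a trait of cbt. The best of them, at 482716 in the ush intron, had pooled rank 4131 and ranks 2525, 21129 and 9932 in the replicates. Another, at 471690, lay in the 5' UTR of CG4297, 135 bp from its start site, with pooled rank 5213, and was not found in replicate 2. A call at 475387 in the coding sequence of MED15, with pooled rank 22336, was found in replicate 3 alone. The IDR list took 7 of the 15 pooled calls at cbt, beside 10.4% of pooled calls in general; membership followed pooled signal, on which cbt was chosen, so nothing is read from that share.

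Within the cbt gene itself calls were few and of low rank. It held no IDR summit, as most genes did not: 7.26% of all genes had an IDR summit in the gene body. The share with a pooled summit in the body is not given here, so few calls is not read as a trait of cbt. The pooled list had 1, at 479148 in the 5' UTR of cbt, 540 bp inside the gene, with pooled rank 17852. Replicate 1 had 1 call there, of rank 3817. Replicate 2 had 2, of ranks 5427 and 5793, the second lying in the cbt coding sequence 256 bp from the start site, and replicate 3 had none. Depth is unknown, so a summit missing from a list is not shown to be absent from the embryos.

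The replicate lists held 10, 7 and 8 summits upstream of cbt and 6, 7 and 7 downstream, for a mean of 16.0 ± 1.00 calls in the region (SD, n = 3). Of these calls, 3 of 17, 5 of 16 and 2 of 15 matched no pooled call. The share over all calls of each replicate list is not given here, so these counts are not read as a trait of the region. The best of the unmatched calls was in replicate 2, at 471358 in CG4297, with rank 2704. The 3 replicate lists have the same length of 30000 calls, so a like number of calls in the region is not read as agreement. In this region the places of calls outside the IDR list varied between replicates, and whether they varied more than elsewhere was not tested.

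The number of IDR summits at cbt, which includes the call by which it was picked, was set beside that of other genes. Of the 17896 genes, 8663 (48.4%) had at least 1 IDR summit in the gene or within 10 kb, and the median gene had 0. At least 7 were found at 23 genes (0.129%), whose median length was 34679 bp, with 4 of them shorter than cbt. Among the 6289 genes of 1622 to 6484 bp, from 50% to 200% of the length of cbt, only cbt and its neighbour MED15 reached 7, and the region of MED15 held all 7 of the same summits. This rests in part on where the length limits fall, since CG13950 (1610 bp) and aru (6506 bp), just outside them, had 8 summits each. The count therefore belongs to the locus as much as to cbt. For pooled calls, 77 of the genes of like length (1.22%) had 15 or more.

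**Figure D4:**
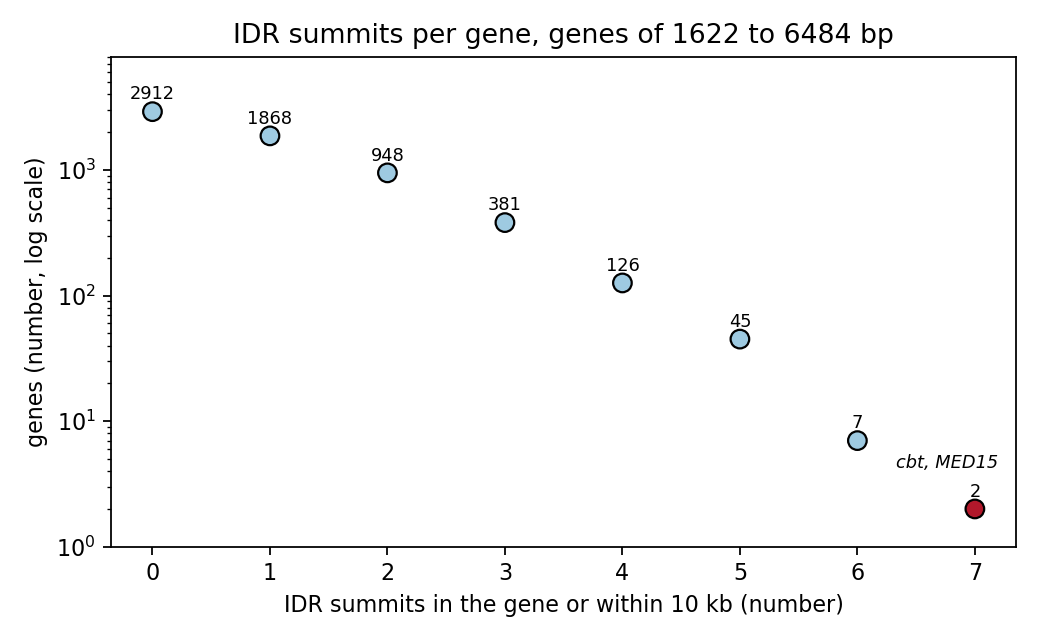
Number of genes of 1622 to 6484 bp (vertical axis, log scale) by the number of IDR summits in the gene or within 10 kb (horizontal axis). The last point is cbt with MED15, at 7 summits; 2912 genes had none and 7 genes had 6, while CG13950 and aru, just outside the length limits, had 8 and are not drawn.

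The large host gene ush shares these calls and holds further ones. With 10 kb on either side, ush had 12 IDR summits, of which 9 lay in its body. Just outside the cbt region, 540 bp beyond its upstream edge, an IDR call of rank 1219 and signal 135 lay in the 5' UTR of a ush transcript, with ranks 2333, 1697 and 1592 in the replicates. On the downstream side the nearest IDR call lay 24337 bp beyond the edge, in an intron of the gene ex, with rank 453. The start site nearest to the summit at +6170 bp, at position 490835, is shared by lncRNA:CR46258 and a ush transcript. Which of cbt, ush and lncRNA:CR46258 the upstream calls act on cannot be told from peak positions.

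Most IDR calls at cbt lay near another one. The gaps between neighbouring summits, from downstream to upstream, were 1886, 1687, 7591, 1012, 855 and 3913 bp. Of all IDR calls, 12.8% had a neighbour within 1012 bp and 10.2% within 855 bp, the gaps on the 2 sides of the strongest call. For the gaps of 1886, 1687 and 3913 bp these shares were 21.8%, 20.2% and 36.0%. The gap of 7591 bp over MED15 and cbt is the distance from no call to its nearest neighbour.

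Of the 14 motifs searched on both strands of the 7 windows, 2 were found. GAGA letters (GAGAG) were in the windows of the promoter call and of the call at -10774 bp, beside 24.6% of IDR windows. TATA box letters were in those of the strongest call and of the call at -8888 bp, beside 29.6% of IDR windows, 18.6% of pooled windows and 26.9% of windows at start sites. The palindrome TGACGTCA was in 0 of 7 windows at cbt, and in 1.52% of IDR, 0.811% of pooled and 0.275% of start-site windows. The E-box CACGTG, a site type of the sugar-sensing partners Mondo and Mlx, was also in none of the 7, beside 2.35% of IDR windows. In the whole called intervals, which were 108 to 413 bp wide, the E-box letters were in 3 of the 7. The 2.35% is for windows of 100 bp either side of a summit, so it is no background for called intervals. The C/EBP letters TTGCGCAA and the letters CACCC, both in 0 of the 7 windows, were in 1 called interval each. Shares of all IDR called intervals with these letters are not given here, so nothing is read from the counts in called intervals. A count of 0 thus says only that the letters are not within 100 bp of the summits. The other motifs searched were also in none of the 7 windows, and the windows of the calls at -7201, +2257 and +6170 bp held no match to any of the 14.

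The genes whose strongest IDR call had replicate ranks most like those of cbt (smallest distance of log2 ranks over the 3 lists) were px, CG14100, Ugalt, ph-p and Atf3. Their distances were 1.53, 2.12, 2.31, 3.31 and 3.56. Their calls had pooled ranks 3, 1, 4, 5 and 6. The likeness thus follows from cbt being chosen by its rank, and nothing is read from it. At these genes the call lay 205, 110, 39, 501 and 202 bp from a start site, nearer than the 1402 bp at cbt. Ugalt encodes a UDP-galactose transporter and ph-p a Polycomb group protein, and Atf3 is the gene of the precipitated factor itself. The replicate summits spanned 3 bp at Ugalt and 2 bp at Atf3, and 16, 23 and 46 bp at px, CG14100 and ph-p. Atf3 had 8 IDR summits in the gene or within 10 kb, px had 3, ph-p had 5, and CG14100 and Ugalt had 1 each.

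Among the Sp/KLF zinc finger genes, the family of cbt, 1 of 10 had an IDR summit within 500 bp of a start site. The share of all protein-coding genes was 14.2%. That 1 gene was cbt itself, which was chosen for its signal, so nothing is read from this count. A pooled call lay within 500 bp of a start site at 7 of the 10, cbt included, beside 46.8% of protein-coding genes. Examples were Spps (rank 7472), CG42741 (rank 4687) and hkb (rank 8000), all beyond the IDR list. Within 10 kb of the gene, 7 of the 10 had an IDR summit, cbt included, beside 50.4% of protein-coding genes.

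Of 11 genes of sugar sensing and its targets, 3 had an IDR summit at a start site, beside 14.2% of protein-coding genes; the count includes cbt, which was chosen for its signal. The others were bigmax, which encodes the Mondo partner Mlx, with rank 954 (ranks 2250, 410 and 1639 in the replicates), and Gpdh1, a glycerol-3-phosphate dehydrogenase, with rank 1760 (ranks 2660, 2321 and 1363). Mondo, the sugar-sensing factor, and sug, a Gli-similar factor downstream of it, had none, and their best pooled calls there ranked 7476 and 7588. Both partners of cbt's known sugar regulation had promoter calls in the pooled list, and that of bigmax alone was among the IDR calls. A pooled call at a start site was found at 46.8% of protein-coding genes, so nothing is read from having one.

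Within 10 kb of the gene, 11 of 15 dorsal closure genes had an IDR summit, cbt included, beside 50.4% of protein-coding genes. A longer gene has a longer region, and length was not matched here. At a start site 4 of the 15 had an IDR summit, including cbt, which was chosen for its signal, beside 14.2% of protein-coding genes. The others were raw, a regulator of JNK signalling, with rank 399 (ranks 95, 2948 and 5817), Jra, the fly Jun, with rank 1240 (ranks 357, 7220 and 20457), and kay, the fly Fos, with rank 1307 (ranks 597, 5749 and 4098). All 3 of these calls ranked highest in replicate 1, and none stayed within the best 2896 calls of replicate 2 or replicate 3, where cbt ranked 65 and 96. The JNK phosphatase gene puc had no IDR summit at a start site but 7 within 10 kb of the gene. The list's count was 1, 2 and 1 when replicates 1, 2 and 3 were left out in turn. Only IDR calls also among the best 2896 of both other replicates were then kept. Of all 2896 IDR calls this left 1910, 1815 and 1773, so the fall is not read as a trait of these genes. The promoter call of cbt was kept each time, and the other gene kept without replicate 2 was raw, through a second call of rank 1984.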

How the data were processed

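Atf3 tagged with GFP was profiled in 3 biological replicates of 1 group. Per the deposited descriptions, relaxed lists of peaks and background were made from each replicate and from the pooled replicates, each with a control file, and the IDR list was thresholded. Which aligner, peak caller and IDR threshold they used is not given in the sources used here. Signal values as deposited have no stated scale. They were used within a list for ranks, for ratios between calls and for percentages of the highest signal. Without a scale, these ratios and percentages are not read as amounts of binding. The deposited −log10 q was at its highest value in 82.0% of IDR calls and was not used for ranking. The 2896 IDR calls are the 2896 pooled calls of highest signal, so both lists give the same ranks. No read totals are in these files, so precision is given by the spread over replicates alone.

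Genes came from Ensembl release 115, without pseudogenes and transposable elements, and sequence from the release 6 genome, which is dm6. Calls were matched between lists when they shared at least 50% of the shorter interval. Motifs and the 14-letter stretch were searched on both strands within 100 bp of each summit, and start-site windows reached as far from annotated start sites. Genes named are cbt, genes that hold or lie nearest to its calls, the 5 genes of most similar ranks, and up to 4 members of each of 3 gene lists with a call at a start site, with Mondo and sug. Other list members, CG13950 and aru were named after their values were seen. The symbol CG9895 is now CG42741, which leaves 10 of 11 Sp/KLF names. The gene, lists and motifs were chosen with earlier results of these data known. Alternatives changed the region, the overlap, the windows, the calls kept and the replicates. No test was made. The dm3 lists were not used. Steps were tested on simulated data. Python 3.11.15, numpy 2.4.6, pandas 2.3.3 and matplotlib 3.10.9 were used.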

Additional observations from a re-analysis of the deposited data

How the results depend on the processing

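The counts depend on how far the region reaches. The 7 IDR calls became 0 in the gene body alone and 4 within 5 kb, the 15 pooled calls became 1, 8 and, within 20 kb, 25, and the replicate mean of 16.0 became 1.00, 9.00 and 22.7. With the same 3 regions, 7.26%, 34.7% and 65.0% of genes had an IDR summit, and 50.4% of protein-coding genes did within 10 kb. Keeping the 2896 highest calls of each replicate gave a mean of 7.33 calls. Leaving out each replicate in turn gave 6 to 7 IDR calls, a replicate mean of 15.5 to 16.5, a mean rank of 1.5 to 2.0 for the strongest call and a mean summit distance of 0.50 to 3.0 bp. Without replicate 2 or replicate 3 the call lost was the one at +2257 bp. Of all 2896 IDR calls, 1910, 1815 and 1773 were left without replicates 1, 2 and 3. The middle of the interval in place of the summit gave 3.17 bp. The 4 matches of motifs in windows at cbt became 2 with windows of 50 bp either side. They became 13 with 200 bp either side and 10 in the called intervals. In the last 2 settings E-box letters went from 0 windows to 2 and 3, CACCC letters from 0 to 2 and 1, and C/EBP letters (TTGCGCAA) from 0 to 1 and 1. The core TGACGT went from 0 to 1 with 200 bp either side and stayed at 0 in the called intervals. GAGA letters went from 2 windows to 5 and 3. Shares of all IDR calls in these settings are not given here, so nothing is read from these motif counts. The Sp/KLF count of 1 became 0 within 250 bp and 7 within 10 kb of the gene. The sugar list's 3 became 5 within 10 kb. The dorsal closure list's 4 became 7 within 1000 bp, 11 within 10 kb, and 1 to 2 when a replicate was left out. Shares of all protein-coding genes within 250 and 1000 bp are not given here. A wider window can raise the count of any list, so these changes are not read as traits of the lists. The 14-letter stretch was in 2 windows at 1 mismatch, and in 3 at 3 mismatches or with 200 bp either side, settings chosen after seeing the data. Ranking by q was not run, since the strongest call's q was tied with others in all 3 replicate lists. No paired analysis was possible because there is 1 group. The missing read totals limit every statement on weak or absent calls, and the cause of these changes was not tested beyond the settings themselves.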
